A study of Mus musculus with 9 samples.

Results

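Circular RNAs (circRNAs) of axon guidance and adhesion genes were examined in the 3 sorted cell types of the neurogenic lineage of the mouse lateral cortex. The members were all circRNAs of the table whose host gene stands on a list of 60 genes: netrin, Slit and ephrin receptors and ligands, semaphorins with their plexin and neuropilin receptors, adhesion molecules of the immunoglobulin superfamily, cadherins and catenins, the reelin pathway, receptor tyrosine phosphatases, and proteins of the growth cone, axon initial segment and microtubules. The rule used the host gene only and no measured value. It gave 76 circRNAs of 34 genes, out of 5281 circRNAs in the table. The other 26 listed genes had no circRNA there: Unc5c, Slit1, Slit2, Epha6, Efna5, Sema6a, Sema6d, Plxna1, Plxna2, Plxnb1, Nrp2, Cntn1, Cntn4, Nrcam, L1cam, Chl1, Nfasc, Cntnap2, Cdh11, Celsr3, Gap43, Dcx, Dclk1, Dpysl3, Ank2 and Mapt.

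All cells came from C57BL/6 embryos at embryonic day (E) 14.5 that were heterozygous for both a Btg2-RFP and a Tubb3-GFP reporter, and the ganglionic eminences and meninges had been removed. Proliferating progenitors (PP) carried neither reporter, differentiating progenitors (DP) were RFP positive and GFP negative, and neurons (N) were GFP positive whatever their RFP. Each cell type was taken in 3 replicates, and the RNA of all 9 libraries was treated with RNase R, an exonuclease that removes linear RNA. Btg2 marks progenitors that will divide to give neurons and Tubb3 is a neuronal tubulin, so the gates rest on fluorescent reporters, which can outlast the activity of their promoters.

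A circRNA forms when the splicing machinery joins the end of a downstream exon back to the start of an upstream exon of the same transcript, the backsplice. Growing axons read guidance cues with surface receptors: netrins act through Dcc, Neo1 and Unc5 proteins, Slits through Robo proteins, ephrins through Eph kinases, and semaphorins through plexins and neuropilins. Adhesion molecules such as cadherins and contactins hold neighbouring cells and axons together, and in the developing cortex newborn neurons start to make many of these proteins as they leave the ventricular zone, migrate to the cortical plate and extend an axon.

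The sequence across the backsplice is what sets a circRNA apart from the linear transcript of its gene, so it is given for 8 circRNAs that lead the comparisons of their role groups, and for 4 Eph circRNAs that close around the same pair of exons. Each run was read from the mouse genome NCBIM37 (mm9) on the strand of the gene, 5′ to 3′. Lower case marks the last 15 bases of the closing exon and capitals mark the first 15 bases of the opening exon. The number after a gene symbol is the end of the circRNA's identifier in the CiCo catalogue.
Cntn2 000064, chr1:134421884-134423040 on the minus strand, exons 8 to 10: agctggctgtacaagCCCTGTTCCCAGGAT
Crmp1 005136, chr5:37656471-37664750 on the plus strand, exons 2 to 4: tggtgcaggacaaagAGTGACCGGCTCCTC
Ank3 000632, chr10:69342641-69345306 on the plus strand, exons 13 to 14: tccataacaacaaagAGAGGAGAGACGGCA
Reln 005026, chr5:21566067-21586641 on the minus strand, exons 11 to 12: tctacttcgttatggCATAGCTGTCAGTCA
Robo2 002430, chr16:73948448-73985957 on the minus strand, exons 7 to 17: tcagcaattatgctgCTCCTCCACAGTTTG
Nrp1 006157, chr8:130942613-130958275 on the plus strand, exons 3 to 6: aaggagtggatccagGTATGACTACGTGGA
Sema5a 002038, chr15:32478470-32480217 on the plus strand, exons 5 to 6: ccaaatggctcaatgGAGGAATGTCAGAAC
Epha4 000387, chr1:77503123-77503786 on the minus strand, exon 3: atggtgaatgccaagTGGGAGGAAGTGAGC
Epha3 002420, chr16:63652041-63653404 on the minus strand, exons 4 to 5: caactaatcaggctgCTTGTCGACCAGGCT
Epha5 005218, chr5:84662608-84666579 on the minus strand, exons 4 to 5: ccacgaatcaagcagTGTGCAGACCTGGGT
Epha7 004551, chr4:28797707-28799146 on the plus strand, exons 4 to 5: ccaccggtcaagcagCCTGTGGCCGCAGGT
Ephb1 006401, chr9:101943342-101969356 on the minus strand, exons 4 to 5: ccacaaaccaagctgCCTGTCCTGCGGGGA

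The last 4 runs come from paralogous Eph genes, and the exons between their ends hold 492 bases in each of the 4. In global alignments of these exons the identity between any 2 of the 4 genes was 58.9% to 63.5%, and the longest stretch of identical bases was 13. Exon 3 of Epha3, Epha4, Epha5 and Ephb1 likewise closed on itself as a single-exon circRNA in all 4 genes, with 64.1% to 71.7% identity and no identical stretch over 19 bases. The same pairs of exons were also used by Dscam 002491 and Dscaml1 006611 (exons 2 to 3, 465 bases in each, 69.7% identity) and by Dcc 003076 and Neo1 006665 (exons 6 to 7, 276 bases in each, 72.5% identity). These 4 sets of paralogous circles were picked out after the member list and its values had been seen.

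Most members were made of coding exons. Both ends lay at exon ends in 71 of the 76 members, and all 76 were flanked in the genome by the splice-site letters AG before the start and GT after the end, as were 5278 of all 5281. The 71 held a median of 2 exons and 492 exon bases, against 3 exons and 449 bases over the 5076 such circRNAs of the table, and 12 of them held a single exon. They lay wholly within coding sequence in 93.0% of cases (84.2% over the table) and opened at exon 2 in 19.7% (29.1% over the table). Of the 66 members wholly within coding sequence, 48.5% had an exon length divisible by 3, against 38.7% over the table. The introns beside them were long, with medians of 22706 bases upstream and 20572 downstream, against 7275 and 5420.5 over the table. These are descriptions of the list, with no test. The other 5 members (Sema5a 002036 and 002037, Cdh2 002899, Celsr2 003948 and Plxna4 005415) had ends inside an intron of their gene and no exon base.

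Each value is a count of reads on the sequence of a circRNA and not of backsplice reads alone, so circRNAs that share exons can share reads. Such a count also cannot tell a circle from linear RNA left after RNase R, and the part of such RNA was not tested here. Among the members, 31 shared counted sequence with another member, among them a pair of intronic circles of Sema5a, and 45 did not. In the 14 pairs in which one circle lies inside another, the inner one had at most the count of the outer one in 126 of 126 comparisons within a library. Nested circRNAs of one gene are therefore not independent observations below. Besides the 5 members within introns, counted sequence held intron bases in 3 members: Cntn2 000064 (1158 counted bases, 443 of them exonic), Ptprs 002766 (11019 and 774) and Ptprs 002767 (6727 and 663).

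The libraries differed in depth. Total counts were 2962787 to 3959379 in PP, 6569620 to 8015311 in DP and 5772646 to 6759985 in N, but most fell on a few entries that each held over 1% of a library. Outside these entries the libraries held 100911 to 265880 counts in PP, 338341 to 383663 in DP and 131924 to 359410 in N. Libraries PP 3 and N 1 were the shallowest of their cell types on this measure. The median member had 7.5, 13.5 and 5 counts in PP 1, PP 2 and PP 3, against 31.5 to 43.5 in DP and 18 to 69.5 in N, and 3 to 7 members had no count in a PP library. At this depth a count of 0 allows up to 1.39 CPM in PP 3 and 0.340 CPM in DP 1, taking 3 counts as the floor, which covers counting error only. CPM are counts scaled to a common library size, computed on library sizes adjusted by the trimmed mean of M-values (TMM).

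Outside the very high entries, member circRNAs held a larger share of the counts in N than in DP, and in DP than in PP. They held 1.25%, 1.31% and 1.18% in the PP libraries, 1.66%, 1.67% and 1.82% in the DP libraries and 3.03%, 3.06% and 2.94% in the N libraries. On this measure the cell types did not overlap, and the mean share was 1.27 higher on the log2 scale in N than in PP. Of all counts, the very high entries included, the members held 0.0538%, 0.0942% and 0.0402% in PP, 0.0932%, 0.0837% and 0.0869% in DP and 0.0693%, 0.188% and 0.125% in N. There the cell types overlapped, since PP 2 lay above every DP library and N 1 below. The median CPM of a member was 2.30 in PP, 4.50 in DP and 8.08 in N. Per kilobase of counted sequence (RPKM), the median was 4.31, 7.77 and 18.9. Averaged over the cell types, the most abundant member per length was Crmp1 005136 at 53.0 RPKM and the least was Plxna4 005415 at 1.02 RPKM.

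**Figure D1:**
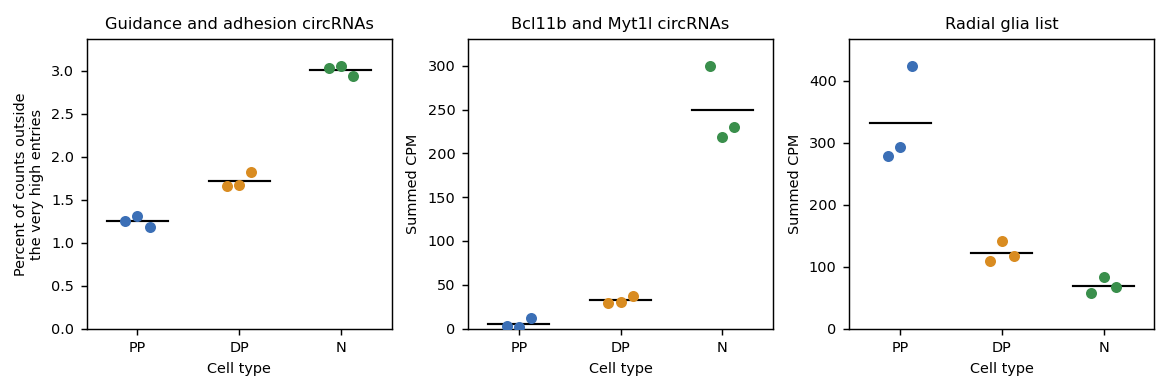
Share of counts held by the 76 guidance and adhesion circRNAs (left, percent of counts outside the very high entries) and summed CPM of the circRNAs of the neuronal genes Bcl11b and Myt1l (middle) and of the radial glia marker genes (right), one point a library and a bar at the mean of each cell type. The member share lies at 1.18% to 1.31% in PP, 1.66% to 1.82% in DP and 2.94% to 3.06% in N; the Bcl11b and Myt1l sum averages 5.72 CPM in PP and 249.7 CPM in N, and the radial glia sum 332 and 69.0 CPM.

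Markers of the sorted cells were checked through the circRNAs that their genes make. Among newborn neuron genes, Bcl11b and Myt1l made 8 circRNAs, and their summed level was 5.72 ± 5.92 CPM in PP, 32.1 ± 4.07 in DP and 249.7 ± 44.0 in N (mean ± SD, n = 3). The most abundant was Bcl11b 001255, a cortical projection neuron factor, at 3.44, 8.46 and 85.9 CPM in PP, DP and N. Of 13 radial glia genes, 5 had 14 circRNAs with sums of 332 ± 80.6, 123 ± 16.1 and 69.0 ± 12.8 CPM in PP, DP and N, led by Ptprz1 005387 at 78.2, 25.4 and 47.4 CPM. Tubb3 and Btg2, the reporter genes, had no circRNA in the table, nor had any gene of the intermediate progenitor, endothelial, microglia, pericyte and meninges, oligodendrocyte precursor or erythroid lists. Of 8 interneuron genes Erbb4 alone had circRNAs, with a sum of 0, 0.162 and 2.32 CPM in PP 1, PP 2 and PP 3, 0, 0 and 0.248 CPM in the DP libraries and 6.20, 6.75 and 3.43 CPM in the N libraries. In PP 3 the Bcl11b and Myt1l sum was also the highest of its cell type, at 12.5 CPM against 2.34 and 2.26. The part that such cells had in the results was not tested, and in sorted pools fewer cells of a type cannot be told apart from less RNA per cell.

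Of the 76 members, 69 had enough counts to be tested, from 31 genes. In the first step of the lineage, DP against PP, 17 members of 9 genes were up-regulated and none was down-regulated by edgeR's quasi-likelihood test with Benjamini-Hochberg adjustment over 4406 circRNAs (adjusted p under 0.05). Over all circRNAs tested, 1.48% were higher and 0.386% were lower. At an unadjusted p under 0.05, 4 of 69 members were lower, against 230 of all 4406 circRNAs, which is a like share. DESeq2 called 0 members lower (0.672% over all). With so few lower over all, the lack of lower members is not a result about the list. In the second step, N against DP, 30 members of 17 genes were up-regulated (9.03% over all) and 4 of 2 genes were down-regulated (9.8% over all). Across both steps, N against PP, 39 members of 21 genes were up-regulated (13.6% over all) and 4 were down-regulated (14.4% over all). The 4 lower members were the 3 circRNAs of Sema5a and Epha4 000387 in both cases. Of these 94 calls, 39 were kept under every alternative that gave a value, 24 were lost under scaling by total counts alone and 31 under that and other alternatives. The counts by role given below have the same shares over all as their background. The test for a difference between any cell types called 46 members (25.1% over all).

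**Figure D2:**
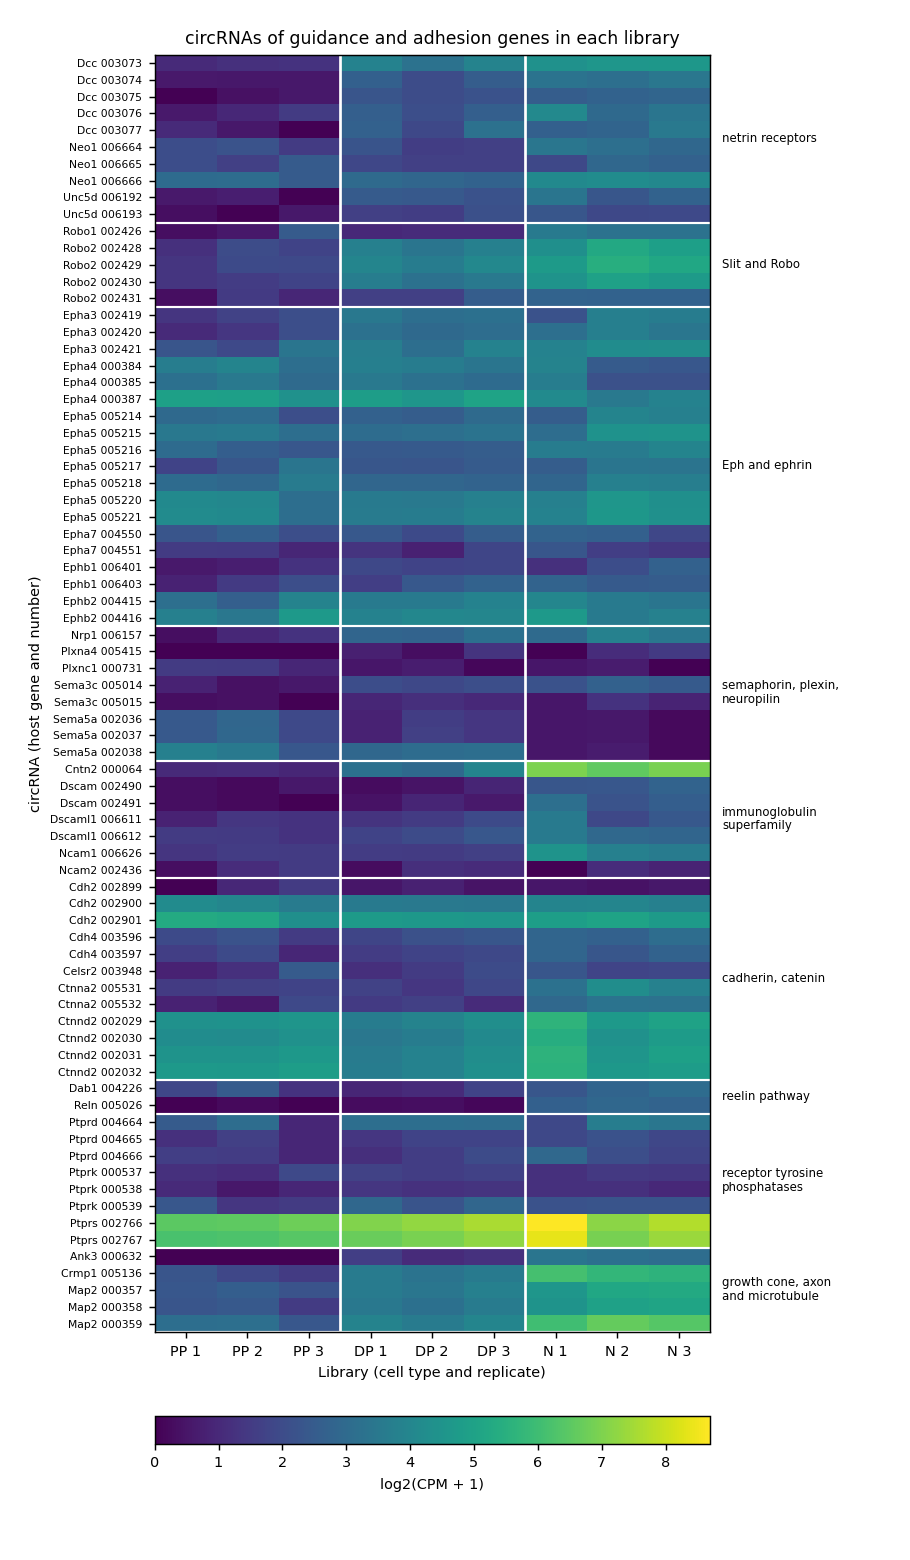
Level of each of the 76 guidance and adhesion circRNAs (vertical, grouped by role) in each of the 9 libraries (horizontal), as colour on the scale log2 of CPM plus 1. The circles of Dcc, Robo2, Cntn2, Crmp1 and Map2 are on average brightest in N, those of Sema5a are darkest in N, and the strongest colour of the map is that of the Ptprs circles.

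The 69 tested members, which a high level in a single cell type was enough to bring past the filter, had medians above that of the table. Their median log2 FC was 0.45 for DP against PP, 0.89 for N against DP and 1.37 for N against PP, where the median of all tested circRNAs was -0.06, -0.02 and -0.10. Groups did not overlap, with all libraries higher, for 27 members in DP against PP (10.9% over all), 38 in N against DP (17.7% over all) and 42 in N against PP (17.4% over all). With all libraries lower there were 8 (8.4% over all), 5 (21.2% over all) and 4 (19.1% over all). Scaling by total counts in place of TMM moved the median of all circRNAs to 0.02, -0.37 and -0.37, and the members lay 0.55, 0.93 and 1.25 above it. Under that scaling 2, 8 and 25 members were up-regulated in the 3 comparisons (0.477%, 1.91% and 4.79% over all). Without PP 2, DP 1 or DP 3 the first count was 9, 11 or 10 (0.698%, 0.802% and 0.776% over all). Without DP 1 or DP 2 the count for N against DP was 19 or 18 (5.61% and 4.96% over all), and without both PP 3 and N 1 the count for DP against PP was 28 (9.08% over all), with 8 members lower (4.9% over all).

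**Figure D3:**
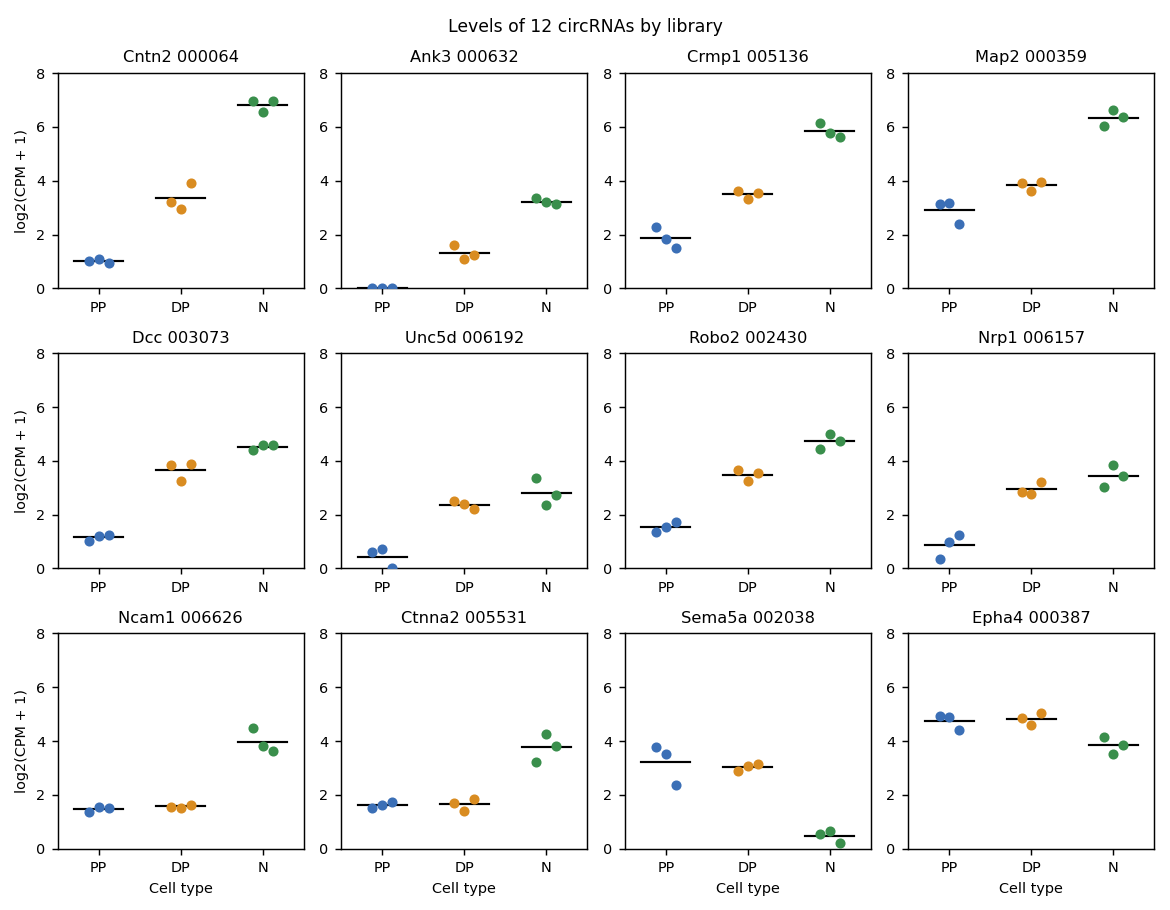
Level of 12 circRNAs in the 3 cell types, as log2 of CPM plus 1, with a point for each library and a bar at the mean of the 3. Cntn2, Ank3, Crmp1 and Map2 stand highest in N with DP in between, DP libraries of Dcc, Unc5d, Robo2 and Nrp1 lie nearer to N than to PP, Ncam1 and Ctnna2 overlap in PP and DP and are higher in N, and Sema5a and Epha4 are lowest in N.

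Of the 10 netrin receptor circRNAs, 7 were up-regulated in DP against PP, 6 in N against DP and 9 in N against PP. The leading one was Dcc 003073, from exons 17 to 27 of the netrin receptor that draws commissural axons toward the midline. Its level was 1.04, 1.29 and 1.39 CPM in the PP libraries, 13.4, 8.64 and 13.8 in the DP libraries and 19.9, 22.8 and 23.2 in the N libraries. The 3 cell types did not overlap at either step. The log2 FC was 3.26 ± 0.37 (SE) for DP against PP (adjusted p = 0.000509, edgeR's quasi-likelihood test), 0.89 ± 0.28 for N against DP (adjusted p = 0.0409) and 4.14 ± 0.37 for N against PP (adjusted p = 5.73e-06). The second step was lost under 11 of 18 alternatives, with adjusted p from 0.000111 to 0.726. The calls of Dcc 003074 and 003076 in N against DP were lost under 7 and 8 of 18, with adjusted p up to 0.705 and 0.685. All 5 Dcc circRNAs were up-regulated from PP to DP, by log2 FC of 2.16 to 3.73, the weakest, Dcc 003076, losing its call under 10 of 18 alternatives, and of these only Dcc 003073 and 003074, which lies inside it, share exons. The call of Dcc 003077 was lost under 4 of 18 alternatives, among them without PP 2, DP 1 or DP 3, with adjusted p up to 0.117. Those of Dcc 003074 and 003075 were lost under scaling by total counts alone. Dcc 003075 rested on 3 counts over the PP libraries against 88 in DP, a ratio of 14.3 with an exact 95% counting interval of 4.74 to 70.7. Per length the most abundant circle of the group was Dcc 003076, at 19.7 RPKM over the cell types. The counts of the group moved with single libraries. Leaving out any DP library lost the N against DP calls of Dcc 003073, 003074 and 003076 and of Neo1 006665. Leaving out PP 2 or DP 3 lost the DP against PP calls of Dcc 003076 and 003077 and of Unc5d 006193.

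Unc5d, a netrin receptor that can turn attraction into repulsion, made 2 circRNAs, and both were up-regulated in DP against PP and in N against PP. Unc5d 006193 rested on 2 counts over PP against 62 in DP. The ratio was 15.1, with an exact 95% counting interval of 4.01 to 128. Its call in DP against PP was lost under 4 of 18 alternatives, with adjusted p up to 0.118. Among these were leaving out PP 1, PP 2 or DP 3. Unc5d 006192 was at 0.519, 0.647 and 0 CPM in PP, 4.64, 4.32 and 3.60 CPM in DP and 9.31, 4.07 and 5.72 CPM in N. DP lay wholly above PP, while DP and N overlapped. The log2 FC for DP against PP was 3.07 ± 0.55 (adjusted p = 0.00863, edgeR's quasi-likelihood test, and 0.0692 under scaling by total counts, which lost the call), and for N against DP it was 0.50 ± 0.36 (adjusted p = 0.412). Of Neo1, the Dcc paralog that also binds netrins, none of the 3 circRNAs passed the test in DP against PP, all 3 were up-regulated in N against DP by log2 FC of 1.19 to 1.59, and 2 of the 3 in N against PP. The N against DP call of Neo1 006665 (adjusted p = 0.0358) was lost under 9 of 18 alternatives, among them DESeq2 and leaving out any DP library, N 2 or N 3, with adjusted p up to 0.574. Those of Neo1 006664 and 006666 in N against DP and in N against PP were lost under scaling by total counts alone (edgeR adjusted p from 0.337 to 0.446). The most abundant, Neo1 006666, was at 7.27, 7.44 and 4.65 CPM in PP, 7.02, 6.29 and 5.71 CPM in DP and 16.4, 17.7 and 15.7 CPM in N.

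Of the Slit receptors, all 5 tested circRNAs were up-regulated in N against PP, 3 in DP against PP and 4 in N against DP. Robo2 002430 takes 11 exons of Robo2, whose protein repels axons from Slit. Its level was 1.56, 1.94 and 2.32 CPM in PP, 11.8, 8.51 and 10.6 CPM in DP and 20.8, 30.7 and 25.6 CPM in N. The cell types did not overlap at either step, and the log2 FC was 2.42 ± 0.35 for DP against PP (adjusted p = 0.00184, edgeR's quasi-likelihood test), 1.33 ± 0.28 for N against DP (adjusted p = 0.00404) and 3.76 ± 0.35 for N against PP (adjusted p = 5.82e-06). Scaling by total counts lost the first call (adjusted p = 0.0993) and the second (0.404). Robo2 002428 and 002429 share exons with it and were called in the same 3 comparisons, so the 3 are not separate observations. In N against DP, Robo2 002428 lost its call under 5 of 18 alternatives, with adjusted p up to 0.425. Among these were leaving out DP 1, DP 2 or N 2. Robo2 002429 lost its call in N against DP without DP 2 and under scaling by total counts, with adjusted p up to 0.392. Both lost the DP against PP call under scaling by total counts (adjusted p = 0.200 and 0.0857). The most abundant of the 3, Robo2 002429, was at 1.56, 2.91 and 2.79 CPM in PP, 14.6, 11.5 and 15.7 CPM in DP and 25.7, 42.9 and 34.8 CPM in N. Robo2 002431, made of exon 2 alone, was called in N against PP (2.35 ± 0.53, adjusted p = 0.00384) and in neither single step.

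Robo1 002426, from exons 4 to 6 of the related receptor, was low until the neurons apart from 1 library. It was at 0.260, 0.485 and 4.65 CPM in PP, 1.02, 1.11 and 1.12 CPM in DP and 11.1, 8.73 and 8.66 CPM in N. PP 3 lay above all DP libraries, and it is also the PP library with the highest sums of Bcl11b and Myt1l circRNAs and of Erbb4 circRNAs; whether these go together was not tested. Robo1 002426 was up-regulated in N against DP by a log2 FC of 3.08 ± 0.54 (adjusted p = 0.000994, edgeR's quasi-likelihood test) and in N against PP by 2.84 ± 0.61 (adjusted p = 0.00291).

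The Eph receptors, tyrosine kinases that answer to ephrins on neighbouring cells, gave the most members, 19 circRNAs of 6 genes. In DP against PP 2 of the 19 were up-regulated, both from Epha3 (1.48% over all). In N against DP 2 of Epha5 were up-regulated (9.03% over all) and 1 of Epha4 was down-regulated (9.8% over all), so that both shares were near the background. In N against PP 6 were up-regulated, from Epha3, Epha5 and Ephb1 (13.6% over all), and 1 was down-regulated (14.4% over all). Several of these calls were weak. That of Epha3 002419 in DP against PP (adjusted p = 0.0399) was lost under 9 of 18 alternatives, among them leaving out PP 1, PP 2, N 3 or any DP library, with adjusted p up to 0.465. That of Epha5 005215 in N against DP (adjusted p = 0.0482) was lost under 13 of 19, among them leaving out PP 1, PP 2, N 2, N 3 or any DP library, with adjusted p up to 0.583. That of Ephb1 006403 in N against PP (adjusted p = 0.0398) was lost under 9 of 18, among them leaving out PP 1, PP 2, DP 2 or any N library, with adjusted p up to 0.341. None of the circRNAs of Epha7 and Ephb2 passed the test in any of the 3 comparisons.

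Epha3 002420 was at 1.04, 1.62 and 3.25 CPM in PP, 8.49, 6.91 and 7.58 CPM in DP and 7.98, 12.4 and 9.64 CPM in N. All DP libraries were above all PP libraries, while DP and N overlapped. The log2 FC for DP against PP was 2.09 ± 0.40 (adjusted p = 0.0136, edgeR's quasi-likelihood test), lost under 5 of 18 alternatives with adjusted p from 1.72e-06 to 0.299. For N against PP it was 2.50 ± 0.40 (adjusted p = 0.000311). The circle of the same 2 exons in Epha5 was at 7.27, 6.47 and 11.2 CPM in PP, 6.34, 6.29 and 5.84 CPM in DP and 6.20, 12.7 and 12.3 CPM in N, with no call in any comparison. That of Epha7 was at 0.740 to 3.99 CPM in all libraries and was not called either. That of Ephb1 was at 0.519, 0.647 and 1.39 CPM in PP and 1.33, 3.14 and 5.55 CPM in N, and was called in N against PP (2.23 ± 0.55, adjusted p = 0.00727, and 0.115 under scaling by total counts).

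Epha4 000387, exon 3 of a receptor that repels corticospinal and other axons, was the most abundant Eph circRNA by CPM and by RPKM, and it was down-regulated in N. It was at 29.9, 28.9 and 19.985 CPM in PP, 27.9, 22.9 and 32.0 CPM in DP and 16.8, 10.5 and 13.6 CPM in N. PP and DP overlapped and all N libraries were below both. Its log2 FC was -1.04 ± 0.31 for N against DP (adjusted p = 0.0305, edgeR's quasi-likelihood test) and -0.98 ± 0.31 for N against PP (adjusted p = 0.0313). The call was lost under 8 of 19 alternatives in the first case and 9 of 19 in the second, with adjusted p from 4.89e-06 to 0.147 and from 8.16e-06 to 0.142. Of the 7 circRNAs of Epha5, Epha5 005216 had the clearest change, with 7.27, 5.01 and 4.18 CPM in PP, 4.42, 4.56 and 4.84 CPM in DP and 11.5, 11.4 and 14.2 CPM in N. N lay above both progenitor types, with a log2 FC of 1.43 ± 0.29 against DP (adjusted p = 0.00303, and 0.415 under scaling by total counts).

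**Figure D4:**
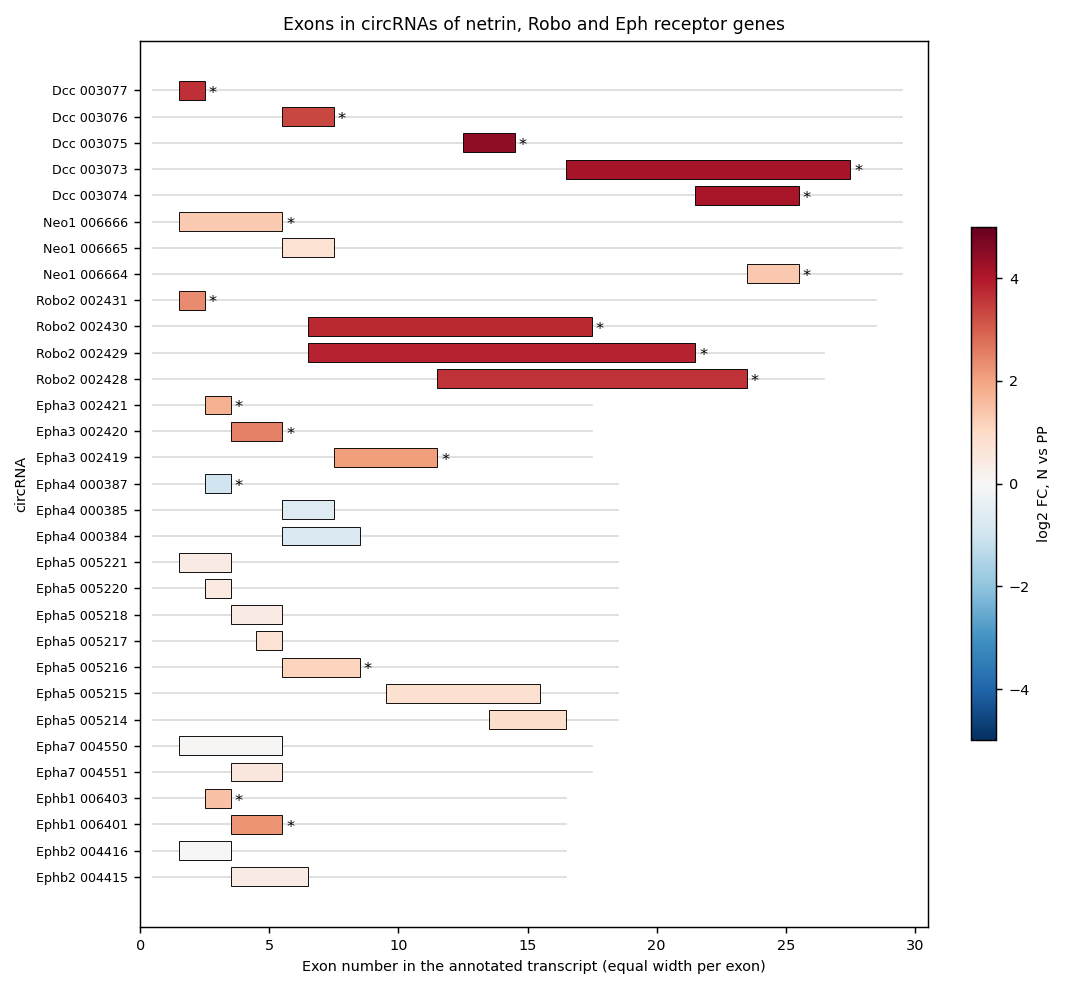
Exons held by the 31 circRNAs of Dcc, Neo1, Robo2 and 6 Eph genes, each drawn as a bar from its first to its last exon along the exon numbers of its transcript, coloured by log2 FC of N against PP. An asterisk marks the 18 circRNAs with an adjusted p under 0.05; all circRNAs of Dcc, Robo2 and Epha3 carry one, those of Epha7 and Ephb2 none.

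Semaphorin pathway circRNAs were split. Of 5 tested, 2 were up-regulated and 3 were down-regulated in N against PP. Nrp1 006157, from the neuropilin that receives class 3 semaphorins and VEGF, was at 0.260, 0.970 and 1.39 CPM in PP, 6.12, 5.80 and 8.32 CPM in DP and 7.09, 13.3 and 9.96 CPM in N. DP lay above PP without overlap, and DP and N overlapped. As log2 FC this was 3.003 ± 0.48 for DP against PP (adjusted p = 0.00356, edgeR's quasi-likelihood test), 0.62 ± 0.34 for N against DP (adjusted p = 0.257) and 3.63 ± 0.48 for N against PP (adjusted p = 6.57e-05). The first call was lost under scaling by total counts (adjusted p = 0.0827).

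Sema3c 005014, from one of the secreted semaphorins that bind neuropilins, was at 0.779, 0.323 and 0.465 CPM in PP, 3.17, 2.71 and 3.23 CPM in DP and 3.55, 5.47 and 4.57 CPM in N. The 3 cell types did not overlap. The log2 FC for DP against PP was 2.56 ± 0.48 (adjusted p = 0.0109, edgeR's quasi-likelihood test), lost under 4 of 18 alternatives with adjusted p from 0.000442 to 0.252.

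Sema5a encodes a transmembrane semaphorin, and its 3 circRNAs were down-regulated in N against both progenitor types. Sema5a 002038 was at 12.7, 10.5 and 4.18 CPM in PP, 6.46, 7.40 and 7.83 CPM in DP and 0.443, 0.582 and 0.163 CPM in N. PP and DP overlapped and all N libraries were below every progenitor library. The log2 FC was -0.39 ± 0.36 for DP against PP (adjusted p = 0.778, edgeR's quasi-likelihood test), -4.08 ± 0.53 for N against DP (adjusted p = 0.000119) and -4.47 ± 0.53 for N against PP (adjusted p = 3.38e-05). Sema5a 002036 and 002037, which share a start within an intron and nearly all of their sequence, had log2 FC of -3.69 and -3.70 in N against PP. Their calls in N against DP (adjusted p = 0.0383 and 0.0371) were lost under 8 and 7 of 17 alternatives, among them without DP 2, DP 3, N 2 or N 3, with adjusted p up to 0.172 and 0.168.

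All 5 tested circRNAs of the immunoglobulin superfamily were up-regulated in N against PP, 4 in N against DP and 1 in DP against PP. Cntn2 000064, from the axonal contactin also called TAG-1, was at 1.04, 1.13 and 0.930 CPM in PP, 8.15, 6.78 and 14.04 CPM in DP and 125, 93.9 and 123 CPM in N. The cell types were far apart at both steps. Its log2 FC was 3.17 ± 0.43 for DP against PP (adjusted p = 0.0013, edgeR's quasi-likelihood test), 3.56 ± 0.35 for N against DP (adjusted p = 2.65e-05) and 6.72 ± 0.45 for N against PP (adjusted p = 1.06e-06). Its counts include the introns between its 3 exons, and how many of them come from the circle was not tested.

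Ncam1, the neural cell adhesion molecule, made a circRNA of exon 17 alone. Ncam1 006626 was at 1.56, 1.94 and 1.86 CPM in PP, 1.93, 1.85 and 2.11 CPM in DP and 21.3, 12.9 and 11.3 CPM in N. The progenitors overlapped and N lay above them, with a log2 FC of 0.13 ± 0.41 for DP against PP (adjusted p = 0.953, edgeR's quasi-likelihood test) and 2.90 ± 0.33 for N against DP (adjusted p = 7.12e-05). Dscam 002491, from a homophilic adhesion molecule that also binds netrin, was at 0.260, 0.162 and 0 CPM in PP, 0.340, 0.864 and 0.497 CPM in DP and 7.98, 3.72 and 5.06 CPM in N. All N libraries were above all progenitor libraries, and the log2 FC for N against DP was 3.17 ± 0.46 (adjusted p = 0.000245). Against PP, which held 2 counts in all, the ratio was 29.1 with an exact 95% counting interval of 7.79 to 244. Both circRNAs of its paralog Dscaml1 were up-regulated in N against PP, by log2 FC of 1.98 and 2.15. The first call, of Dscaml1 006611, was lost without PP 1 and under scaling by total counts, with adjusted p up to 0.203. The second, of Dscaml1 006612, was lost under scaling by total counts (adjusted p = 0.0752).

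Of the 11 tested cadherin and catenin circRNAs, 7 were up-regulated in N against DP (9.03% over all) and 4 in N against PP (13.6% over all). None passed the test in DP against PP, where few circRNAs of the table did (1.48% higher and 0.386% lower). Ctnna2 005531, from the neuronal alpha-catenin that ties cadherins to actin, was at 1.82, 2.10 and 2.32 CPM in PP, 2.27, 1.604 and 2.61 CPM in DP and 8.42, 18.1 and 13.2 CPM in N. The progenitors overlapped and N lay above both. As log2 FC this was 2.65 ± 0.35 for N against DP (adjusted p = 0.000128, edgeR's quasi-likelihood test) and 2.72 ± 0.39 for N against PP (adjusted p = 0.000123). The 4 overlapping circRNAs of Ctnnd2, delta-catenin, were all up-regulated in N against DP by log2 FC of 1.14 to 1.24, with adjusted p of 0.0160 to 0.0295, lost under 4 to 7 of 19 alternatives (without DP 1 or DP 2 for all 4), and none was called in N against PP. The largest by exons, Ctnnd2 002029, was at 20.3, 20.4 and 22.3 CPM in PP, 11.6, 13.8 and 18.6 CPM in DP and 49.2, 24.3 and 31.5 CPM in N.

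Cdh2, N-cadherin, which holds the apical junctions of the progenitors and is also made by neurons, gave the most abundant circRNAs of its group. Cdh2 002901 was at 39.2, 36.2 and 19.1 CPM in PP, 25.4, 23.9 and 22.5 CPM in DP and 28.4, 32.0 and 25.5 CPM in N, and Cdh2 002900, nested in it, was the most abundant of the group per length at 40.4 RPKM. For Cdh2 002901 PP overlapped with both other cell types, and for Cdh2 002900 PP (17.4, 14.9 and 11.2 CPM) lay above DP (10.9, 10.5 and 10.2 CPM) and overlapped with N (14.2, 14.4 and 12.7 CPM). Neither was called in any comparison, with log2 FC between -0.47 and 0.39. Of the 2 circRNAs of Cdh4, R-cadherin, both were up-regulated in N against PP, by log2 FC of 1.09 and 1.24, calls lost under 7 and 6 of 18 alternatives, among them without PP 1 or N 3.

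In the reelin pathway, the secreted glycoprotein Reln and its intracellular adaptor Dab1 each made 1 circRNA, and both were up-regulated in N against DP. Reln 005026 was at 0, 0.162 and 0 CPM in PP, 0.227, 0.247 and 0.124 CPM in DP and 5.32, 6.40 and 5.88 CPM in N. N was far above the progenitors, in which it was near 0. The log2 FC for N against DP was 4.76 ± 0.46 (adjusted p = 2.4e-05, edgeR's quasi-likelihood test). For N against PP the ratio was 73.9, with an exact 95% counting interval of 12.98 to 2949 from 103 counts against 1 (adjusted p = 1.66e-05). Dab1 004226 was at 2.60, 4.69 and 1.39 CPM in PP, 0.906, 1.11 and 2.36 CPM in DP and 3.99, 5.93 and 7.35 CPM in N. PP overlapped with both, DP and N did not overlap, and the log2 FC for N against DP was 2.03 ± 0.44 (adjusted p = 0.00462). That call was lost under scaling by total counts (edgeR adjusted p = 0.172).

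Receptor tyrosine phosphatases, synaptic and axonal adhesion receptors with an intracellular phosphatase, had 7 tested circRNAs. Of these 2 were up-regulated in N against PP, both from Ptprs (13.6% over all), and none passed the test in either single step, where 1.48% and 9.03% of all were higher. Ptprs 002766 was the most abundant member by CPM, at 89.6, 91.2 and 109 CPM in PP, 131, 155 and 191 CPM in DP and 413, 144 and 204 CPM in N. All N libraries were above all PP libraries, and DP and N overlapped, N 1 being far above the other N libraries. The log2 FC for N against PP was 1.39 ± 0.38 (adjusted p = 0.0132, edgeR's quasi-likelihood test), and that of Ptprs 002767, nested in it, was 1.40 ± 0.37 (adjusted p = 0.0111). The first call was lost under 3 of 19 alternatives, among them without PP 1, and the second under scaling by total counts (adjusted p = 0.257). Per kilobase they stood at 15.4 and 20.2 RPKM, since most of their counted length is intron.

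All 5 circRNAs of the growth cone, axon initial segment and microtubule proteins were up-regulated in N against DP and in N against PP, and 2 were in DP against PP. Crmp1 005136, from a collapsin response mediator that relays semaphorin signals to the cytoskeleton, was at 3.90, 2.59 and 1.86 CPM in PP, 11.3, 8.88 and 10.8 CPM in DP and 69.6, 53.3 and 48.5 CPM in N. The cell types did not overlap at either step. The log2 FC was 1.85 ± 0.36 for DP against PP (adjusted p = 0.0138, edgeR's quasi-likelihood test), 2.46 ± 0.32 for N against DP (adjusted p = 0.000119) and 4.31 ± 0.37 for N against PP (adjusted p = 3.87e-06). The first call was lost under 5 of 18 alternatives, among them without PP 2, DP 1 or DP 3, with adjusted p up to 0.244.

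Ank3 000632, from ankyrin-G, the scaffold of the axon initial segment, had no count in any PP library. It was at 2.04, 1.11 and 1.37 CPM in DP and 9.31, 8.14 and 7.68 CPM in N. Against a floor of 3 counts over the PP libraries it was at least 6.18-fold higher in DP (adjusted p = 0.00981, edgeR's quasi-likelihood test) and at least 33.0-fold higher in N. The first call was lost without PP 2 (adjusted p = 0.0753) and under scaling by total counts (adjusted p = 0.052), the range over its 17 alternatives being 0.000408 to 0.0753. The log2 FC for N against DP was 2.44 ± 0.35 (adjusted p = 0.000365, and 0.057 under scaling by total counts).

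Map2, which stabilises microtubules in dendrites, made 3 circRNAs. The N against DP calls of Map2 000357 and 000358 were lost under scaling by total counts (edgeR adjusted p = 0.264 and 0.302). Map2 000359 was at 7.79, 8.09 and 4.18 CPM in PP, 13.9, 11.3 and 14.7 CPM in DP and 64.3, 99.2 and 82.5 CPM in N. The cell types did not overlap. Its log2 FC was 0.95 ± 0.34 for DP against PP (adjusted p = 0.236, edgeR's quasi-likelihood test), 2.62 ± 0.33 for N against DP (adjusted p = 0.000107) and 3.57 ± 0.35 for N against PP (adjusted p = 7.36e-06).

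Of the 39 members up-regulated from PP to N, both single steps were called for 9 from 5 genes, the first step only for 8 from 5 genes, the second only for 14 from 10 genes, and neither step alone for 8 from 6 genes. These classes record only which steps passed the threshold, not a difference between the steps. A test of the first step minus the second in the same fit was added after the data had been seen. It called 3 members with a first step above the second as a signed log2 FC (4.35%, against 3.7% over all). For 3 the second was above the first (4.35%, against 0.477% over all). The share with the first step above was thus near the background. Those with the first above were Dcc 003073 (difference of log2 FC 2.37 ± 0.54, adjusted p = 0.0240, edgeR's quasi-likelihood test), Dcc 003075 (3.04 ± 0.76, adjusted p = 0.0376) and Sema5a 002038, whose second step was a loss (3.69). Those with the second above were Ncam1 006626 (-2.77 ± 0.65, adjusted p = 0.0274), Ctnna2 005531 (-2.58 ± 0.67, adjusted p = 0.0457) and Dab1 004226 (-3.16). Both steps use the same DP libraries. No share over all is given for this count in other settings. The count of 6 was 0 to 12 when a library was left out and 33 without PP 3 and N 1. It was 1 with a replicate block and 0 under scaling by total counts.

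**Figure D5:**
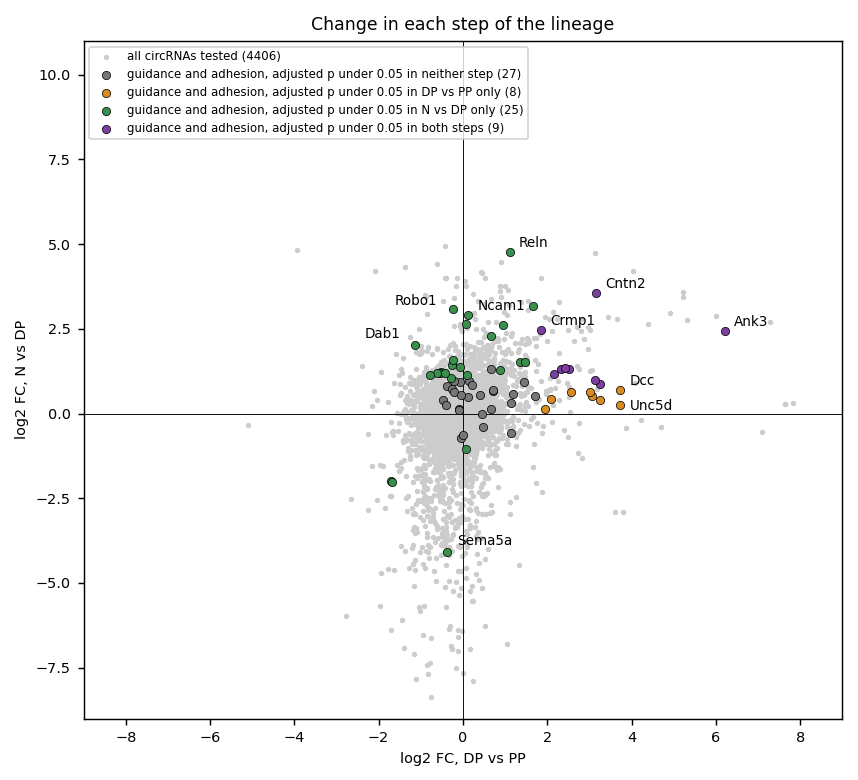
Log2 FC of DP against PP (horizontal axis) and of N against DP (vertical axis) for the tested members over all 4406 tested circRNAs in grey. Coloured points mark 9 members called higher at both steps, 8 at the first only, 25 called at the second only (4 of them lower) and 27 at neither; the same DP libraries enter both axes.

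Whether circRNAs of one gene changed unequally was asked of the 58 tested members from genes with at least 2 tested circRNAs. None had a log2 FC in N against PP that differed from that of its gene by edgeR's test for differential usage with Benjamini-Hochberg adjustment, against 0.0654% over the 3058 circRNAs tested. CircRNAs that share exons can share reads, which draws their log2 FC together. The test therefore cannot show that the circles of a gene changed equally. At an unadjusted p under 0.05 there was 1 member, Robo2 002431, against 33 over all. DESeq2 was not run for this question.

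The 7 members below the count filter were Cdh2 002899, Dscam 002490, Ncam2 002436, Ptprk 000538, Plxna4 005415, Plxnc1 000731 and Sema3c 005015. Dscam 002490, exons 24 to 27, was at 0.260, 0.162 and 0.465 CPM in PP, 0.227, 0.370 and 0.870 CPM in DP and 3.99, 4.19 and 5.88 CPM in N. N lay above all progenitor libraries, as for Dscam 002491. Plxnc1 000731, from a plexin that receives Sema7a, was at 1.82, 1.78 and 0.930 CPM in PP, 0.453, 0.617 and 0.124 CPM in DP and 0.443, 0.582 and 0 CPM in N. PP lay above both other cell types, and these values were not tested.

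Other genes of the same pathways, 132 on a second list, were looked at in the same fit. Of these, 49 made 98 circRNAs, of which 88 were tested: 1 was higher (1.14%, against 1.48% over all circRNAs) and 1 lower (1.14% against 0.386%) in DP against PP. In N against DP 19 were higher (21.6% against 9.03%) and 11 lower (12.5% against 9.8%), and in N against PP 26 were higher (29.5% against 13.6%) and 14 lower (15.9% against 14.4%). The shares of lower circRNAs in both comparisons of N were thus near those over all. Their median log2 FC for the 3 comparisons was 0.06, 0.30 and 0.59. The count of 26 fell to 4 under scaling by total counts and to 15, 14 or 16 without PP 1, PP 2 or N 3. Of the 19 calls higher in N than DP, those of Efnb2, Limk1, Trio, Cadm1, Ptk2 and Fat3 006514 were lost without DP 2. These calls were also lost under scaling by total counts. The calls of Pak1, Dpysl5 and Fat3 006513 were lost under scaling by total counts only.

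Among those higher in N than PP was Dpysl5 005074, from a relative of Crmp1, at 4.67, 3.72 and 7.44 CPM in PP, 15.1, 11.5 and 15.9 CPM in DP and 67.4, 28.9 and 45.1 CPM in N. The cell types did not overlap, and the log2 FC for N against PP was 3.20 ± 0.41 (adjusted p = 5.28e-05, edgeR's quasi-likelihood test). Cdh13 006099, from the cadherin without a cytoplasmic tail, had no count in PP and was at least 18.7-fold higher in N. Plxnd1 005283, from the receptor of Sema3e, had 2 counts over PP, and the ratio of N to PP was 36.3 with an exact 95% counting interval of 9.78 to 303. Kalrn 002360, from a guanine nucleotide exchange factor, was called in DP against PP (1.36 ± 0.30, adjusted p = 0.0328) and in N against PP (1.65 ± 0.30, adjusted p = 0.000963). The first call was lost under 9 of 18 alternatives, with adjusted p up to 0.814, and the second under scaling by total counts (adjusted p = 0.180).

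The circRNAs lower in N than PP included those of Celsr1, Ctnna1, Sema5b and Dock1. Celsr1 002203, from a planar polarity cadherin, was at 24.4, 22.8 and 14.4 CPM in PP, 18.6, 18.8 and 22.0 CPM in DP and 3.10, 1.63 and 2.29 CPM in N. All N libraries lay below all progenitor libraries, with a log2 FC of -3.24 ± 0.36 for N against PP (adjusted p = 2.17e-05, edgeR's quasi-likelihood test). Ctnna1 002958, from the alpha-catenin of epithelia and progenitors, had a log2 FC of -3.37 ± 0.40 (adjusted p = 3.38e-05) where that of its neuronal paralog Ctnna2 005531 was 2.72. Sema5b 002370, from the paralog of Sema5a, had -2.68 ± 0.37 (adjusted p = 9.22e-05), and Dock1 005783, from a Rac activator downstream of Dcc, had -4.26 ± 0.52 (adjusted p = 4.04e-05). The single circRNA lower in DP than PP was Ptprz1 005387, which is also on the radial glia list. Its call (adjusted p = 0.0314, edgeR's quasi-likelihood test) was lost under 9 of 19 alternatives, with adjusted p up to 0.536. Among these were leaving out PP 1, PP 2, N 3 or any DP library.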

How the data were processed

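The authors sequenced RNase R-treated RNA from 3 sorted cell types, with 3 libraries of each, on strand-specific libraries (bcl2fastq 1.8.4), aligned reads to mm9 with gsnap, predicted circRNAs from unmapped reads with find_circ, and counted reads on the expressed exons and introns of each circRNA with featureCounts (Subread 1.6.0). The deposited values are raw read counts per circRNA with the counted length in bases. How reads on overlapping circRNAs were assigned is not given in the sources used here. The replicates are described as biological, and nothing in the labels pairs them.

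Host genes were taken from the catalogue's gene names and otherwise from the GENCODE vM1 gene that contains the circRNA on the same strand, with Map2 matched through its older symbol Mtap2. The members, lists and named circRNAs were chosen with earlier results of these data known. Counts were tested with edgeR 4.0.16 in R 4.3.3 (TMM, filterByExpr, quasi-likelihood test, all 9 libraries in a fit without covariates), with Benjamini-Hochberg adjustment over 4406 circRNAs and a threshold of 0.05. Errors of log2 FC are standard errors of the fit. Circles without counts in PP were set against 3 counts over the group, and those with 1 to 3 counts are given as a ratio with its exact interval. Sequences were read with pysam 0.24.0 and compared with Biopython 1.88, tables were handled with pandas 2.3.3 in Python 3.11.15 and figures drawn with matplotlib 3.10.9.

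Named circRNAs were, for each comparison and direction, the 8 with the smallest adjusted p, 1 per gene, the most abundant of each role group by CPM and by RPKM, the Cntn2 and Dcc circRNAs, and the 4 per direction of the second list. The other circRNAs named were chosen after their values had been seen. The script was tested on simulated counts for N against PP: of 173 changed circRNAs at a log2 FC of 2, 79.2% were recovered, with 4.86% false calls. Alternatives were DESeq2 1.42.0, other scalings and filters, a replicate block, fewer libraries, fewer circRNAs and a test against an FC of 1.5. Leaving out the members with counted intron bases and the difference of steps were added after the data had been seen. Part of the newborn neuron marker list is not reported here.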

Additional observations from a re-analysis of the deposited data

Results flagged for a closer look

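For 6 members the log2 FC of the first step (DP against PP) differed from that of the second (N against DP) in a test of the difference itself by edgeR's quasi-likelihood test, and the same DP libraries enter both steps. As a signed log2 FC, the first step lay above the second for 3 of them and below it for 3. Each is 4.35% of the tested members, against 3.7% and 0.477% over all circRNAs tested. The share with the first step above was thus near the background. The first minus the second was 2.37 for Dcc 003073, 3.04 for Dcc 003075 and 3.69 for Sema5a 002038, whose second step was a loss (-4.08) and whose first was -0.39 with adjusted p = 0.778 by edgeR. It was -2.58 for Ctnna2 005531, -2.77 for Ncam1 006626 and -3.16 for Dab1 004226. No share over all is given for the count in other settings. The count of such members was 0 to 12 when 1 library was left out. It was 1 with a replicate block and 0 under scaling by total counts.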

How the results depend on the processing

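Of 37 results for single circRNAs, 26 kept their call under every alternative that gave a value and none reversed among 668 values. In 44 of the 668 the call was lost, and each of the 11 results concerned lost it under scaling by total counts. The 37 were mainly those with the smallest adjusted p of each comparison and direction, a choice that favours keeping the call. Of all 94 calls of members, 39 were kept under every alternative that gave a value, and of the 17 in DP against PP 2 were. The median member had 5 to 13.5 counts in the PP libraries, and the part that this depth had in the lost calls was not tested.

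Under scaling by total counts, 2 members were higher in DP than PP (0.477% over all). Of the members, 8 were higher (1.91% over all) and 1 lower (7.33% over all) in N than DP, and 25 were higher in N than PP (4.79% over all). The count for any cell type was then 27, that of the second list 4 higher, and that of the difference of steps 0. With at least 10 counts in every library, which leaves out circRNAs that are low in PP, these were 0, 5, 1 and 4. Then 1 was lower in N than PP, with 4 for any cell type, 10 higher and 0 lower on the second list. The difference of steps gave 0. This filter left 1262 circRNAs, of which 0.634%, 6.74% and 12.8% were higher in the 3 comparisons. Of these circRNAs 3.88% were lower in N than DP and 9.59% in N than PP. Without PP 3 and N 1 together, 28 were higher (9.08% over all) and 8 lower (4.9% over all) in DP than PP. In that setting 7 were lower in N than PP (20.6% over all), and 33 differed between steps. With 1 circRNA per gene, 8 were higher in DP than PP, 15 higher and 2 lower in N than DP, 20 higher and 2 lower in N than PP, 22 in any cell type, and 12 higher and 7 lower on the second list. This section gives no share over all for the difference of steps, any cell type, 1 circRNA per gene or both ends at exon ends. Those counts are therefore not set against a background and are not results about the members. Against an FC of 1.5, N and DP gave 18 higher (5.45% over all) and 1 lower (7.06% over all), and the second list 16 higher. With the cell types of a comparison alone, 2 were lower in N than DP (11.8% over all) and 1 in N than PP (9.59% over all). The second list then gave 13 higher and 9 lower. DESeq2 called 2 lower in N than DP (8.21% over all). With both ends at exon ends, 2 were lower in each comparison of N. The log2 ratio of the member share in N to PP, 1.27, was 1.95 from the median CPM and 1.02 over all counts.

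Leaving out 1 library at a time gave 9 to 20 higher and 0 to 2 lower in DP than PP, 18 to 36 higher and 1 to 5 lower in N than DP, 35 to 44 higher and 3 to 6 lower in N than PP, 14 to 36 higher on the second list, and 0 to 12 for the difference of steps. Over all circRNAs, 0.698% to 2.66% were then higher and 0.0216% to 1.24% lower in DP than PP. In N than DP the shares were 4.96% to 13.1% higher and 6.5% to 13.3% lower. For N against PP they were 10.7% to 18% higher and 10.7% to 16.9% lower. The count of members lower in N than DP was 1 without DP 2, DP 3, N 2 or N 3 (6.99%, 7.5%, 7.29% and 6.5% over all).

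Same-numbered libraries did not deviate together more than others did (mean r -0.03 over 9 pairs and 0.02 over 18 pairs). With 3 libraries of each cell type this cannot decide whether the replicates were paired. With a replicate block the difference of steps gave 1, and the members called higher were 15, 25 and 37 in the 3 comparisons and lower 0, 3 and 3. Over all circRNAs, 0.976%, 7.19% and 11.9% were then higher and 0.113%, 8.51% and 12.2% lower.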
